A study of Mus musculus with 2 samples.

Results

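Costimulation by the tumor necrosis factor (TNF) family was examined in immune cells of mouse melanoma through 10 genes, chosen by symbol out of 31253 genes in the count tables. Of these, 6 encode receptors (Tnfrsf4, Tnfrsf9, Tnfrsf18, Tnfrsf1b, Cd27 and Cd40) and 4 encode ligands (Tnfsf4, Tnfsf9, Cd70 and Cd40lg). Their unique molecular identifiers (UMIs, each counting 1 captured mRNA molecule) were summed over cells with mitochondrial genes under 10% of UMIs. The 10 genes held 40948 UMIs in the library labelled Irg1+/+ and 29374 in the library labelled Irg1-/-, or 0.0973% and 0.0832% of all UMIs.

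The libraries came from B16-F10 melanomas, a C57BL/6-derived mouse melanoma line, grown under the skin of Irg1+/+ and Irg1-/- mice after injection of 200000 cells. Irg1 (Acod1) encodes the mitochondrial enzyme that makes itaconate in activated myeloid cells, and the Irg1-/- mice lacked it in the whole body, tumor cells excepted. On day 10, tumor pieces of 100 mm3 from 3 mice of a genotype were pooled, and Cd45+ cells, 6000 per genotype by the protocol, were sorted for BD Rhapsody single-cell RNA sequencing. By the study's methods the tumor-bearing mice were female and aged 8 to 10 weeks, and the Irg1-/- line was on a C57BL/6J background. Each genotype is therefore 1 library with no replicate check, so no test was run between or within genotypes, and all intervals below are exact 95% intervals that cover counting error only.

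The deposited tables held 6408 and 5896 cell barcodes, and the filter left 6284 cells with 42105693 UMIs (median 4528 per cell) and 5794 cells with 35307041 UMIs (median 4594.5). The 2 libraries shared 36 barcodes. Acod1 itself stood at 87.8 UMIs per 1000000 UMIs (CPM) over all kept cells of the library labelled Irg1+/+ and 108 CPM in the library labelled Irg1-/-. In the neutrophil gate it was at 2299 and 2081 CPM, so the targeted gene did not separate the libraries as their labels do. Whether the counted reads fall in the deleted part of the gene is not given in the sources used here. The genotype is therefore named only as a label throughout, and paired values are given first for the library labelled Irg1+/+ and then for the library labelled Irg1-/-.

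The receptors act on the cell that carries them. OX40 (Tnfrsf4), 4-1BB (Tnfrsf9), GITR (Tnfrsf18), TNFR2 (Tnfrsf1b) and CD27 are carried by T and NK cells, where ligand-driven clustering recruits TRAF adaptor proteins and switches on NF-kB, which sustains division and survival after antigen has been seen. CD40 works in the other direction: CD40 ligand on helper T cells engages it on dendritic cells, macrophages and B cells and licenses them to prime T cells. Regulatory T cells in tumors are known for high OX40, 4-1BB and GITR, and antibodies to these receptors are used to stimulate effector cells or to deplete regulatory cells.

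Cells were placed in gates by marker genes, and a gate is named for its markers, not as a proven cell type. The regulatory T gate held 256 and 101 cells, the CD4 conventional T gate 108 and 94, the CD8 T gate 521 and 301, the gamma delta T gate 36 and 34, and the NK gate 303 and 575. Another 302 and 168 T cells with no Foxp3 UMI met no subset rule and are called T cells without a subset. They are not among the 12 gates ranked below. The dendritic gates were type 1 (212 and 136 cells), type 2 (181 and 258) and mature (375 and 312), beside 1812 and 2011 cells in the macrophage and monocyte gate. A further 92 and 36 T cells had a Foxp3 UMI but stayed outside the regulatory T gate, 79 and 28 of them because they held at least as many Cd8a and Cd8b1 UMIs as Foxp3 UMIs, and 21 and 14 because they held under 2 of the 4 other markers. They were left out of both sides when regulatory T cells were set against other T cells, a term that here means T cells with no Foxp3 UMI (967 and 597). Foxp3, the regulatory T cell factor, was at 645 and 531 CPM in the regulatory T gate, and Ncr1, an NK receptor, at 395 and 414 CPM in the NK gate; both were used for gating, so these values describe the gates and do not check their names.

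UMIs of genes foreign to a gate were found in every gate. Read as free RNA, the macrophage C1q genes in lymphoid and melanoma gates and the CD3 and T cell receptor genes in myeloid gates give a free-RNA share between 18.03% and 32.7% of the UMIs of a gate; how much of this came from doublets was not tested. For each gene this gives a free-RNA level, the share of free RNA times the mean of the whole library, and a value at about that level is not read as expression.

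Of the 6 receptor genes, 4 lie on chromosome 4 (GRCm38 coordinates of the genes as annotated). Tnfrsf4 (chr4:156013843-156016612, + strand) and Tnfrsf18 (chr4:156026164-156028895, + strand) are neighbours with 9551 bases between them, Tnfrsf9 spans chr4:150914562-150946102 on the + strand, and Tnfrsf1b spans chr4:145213463-145246870 on the - strand. Sdf4 ends 232 bases before Tnfrsf4. The starts of Tnfrsf4, Tnfrsf18, Tnfrsf9 and Cd27 are shown because these 4 receptors were highest in the regulatory T gate. The 5′ to 3′ sequences are the RefSeq promoters of GRCm38.p6, from 250 bases before to 50 after each start, with Tnfrsf4 cut to the 134 bases outside Sdf4 (the 166 bases left out hold 1 TGGAAA match). These starts are not those of the annotated genes: that of Tnfrsf4 lies 148 bases before the gene as annotated, so its window ends 99 bases short of it, and those of Tnfrsf18 and Tnfrsf9 lie 158, 5593 and 13437 bases inside the annotated genes. Letters that match a kappaB-type motif (GGG, any 5 bases, CC), TGANTCA (AP-1-type) or TGGAAA (NFAT-type) on either strand are in capitals.
Tnfrsf4 start, chr4:156013611-156013744, + strand: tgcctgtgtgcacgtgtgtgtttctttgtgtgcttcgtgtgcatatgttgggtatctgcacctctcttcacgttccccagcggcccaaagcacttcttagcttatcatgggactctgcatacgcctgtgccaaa
Tnfrsf18 start, chr4:156026072-156026371, + strand: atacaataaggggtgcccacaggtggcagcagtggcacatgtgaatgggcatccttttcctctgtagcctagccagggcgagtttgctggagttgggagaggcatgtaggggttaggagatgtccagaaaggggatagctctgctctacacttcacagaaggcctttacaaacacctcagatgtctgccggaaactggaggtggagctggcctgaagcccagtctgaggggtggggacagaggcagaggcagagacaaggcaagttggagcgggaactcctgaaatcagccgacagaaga
Tnfrsf9 upstream start, chr4:150919905-150920204, + strand: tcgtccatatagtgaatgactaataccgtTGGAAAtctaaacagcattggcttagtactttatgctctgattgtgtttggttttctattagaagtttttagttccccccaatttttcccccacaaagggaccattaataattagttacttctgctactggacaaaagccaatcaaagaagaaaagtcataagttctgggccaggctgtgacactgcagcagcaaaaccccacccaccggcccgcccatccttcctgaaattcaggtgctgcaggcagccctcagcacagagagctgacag
Tnfrsf9 downstream start, chr4:150927749-150928048, + strand: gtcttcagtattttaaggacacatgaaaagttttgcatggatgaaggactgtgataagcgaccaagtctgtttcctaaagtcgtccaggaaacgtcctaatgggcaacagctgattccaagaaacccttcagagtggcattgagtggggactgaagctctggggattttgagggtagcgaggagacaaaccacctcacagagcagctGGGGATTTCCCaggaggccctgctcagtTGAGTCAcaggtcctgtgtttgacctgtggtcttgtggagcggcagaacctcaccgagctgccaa
Cd27 start, chr6:125236978-125237277, - strand: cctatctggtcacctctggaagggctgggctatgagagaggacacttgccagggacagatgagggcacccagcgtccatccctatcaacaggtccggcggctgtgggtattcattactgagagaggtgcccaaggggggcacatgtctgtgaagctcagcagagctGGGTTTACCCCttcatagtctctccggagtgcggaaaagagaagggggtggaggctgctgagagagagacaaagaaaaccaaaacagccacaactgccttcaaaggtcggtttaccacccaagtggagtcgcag
The downstream start of Tnfrsf9 held 2 overlapping kappaB-type matches, beginning 43 and 42 bases before the start, and 1 TGANTCA match beginning 15 bases before it. Its upstream start held 1 TGGAAA match and no other, and that of Cd27 held 2 overlapping kappaB-type matches, beginning 84 and 83 bases before the start. The printed stretches of Tnfrsf4 and Tnfrsf18 held none of these letters, which says only that they are not in these windows. Of 32851 mouse promoters of 300 bases, 50.8% held the kappaB-type motif, 7.81% TGANTCA and 21.4% TGGAAA, so a match is a description of the sequence and not of a bound site.

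**Figure D1:**
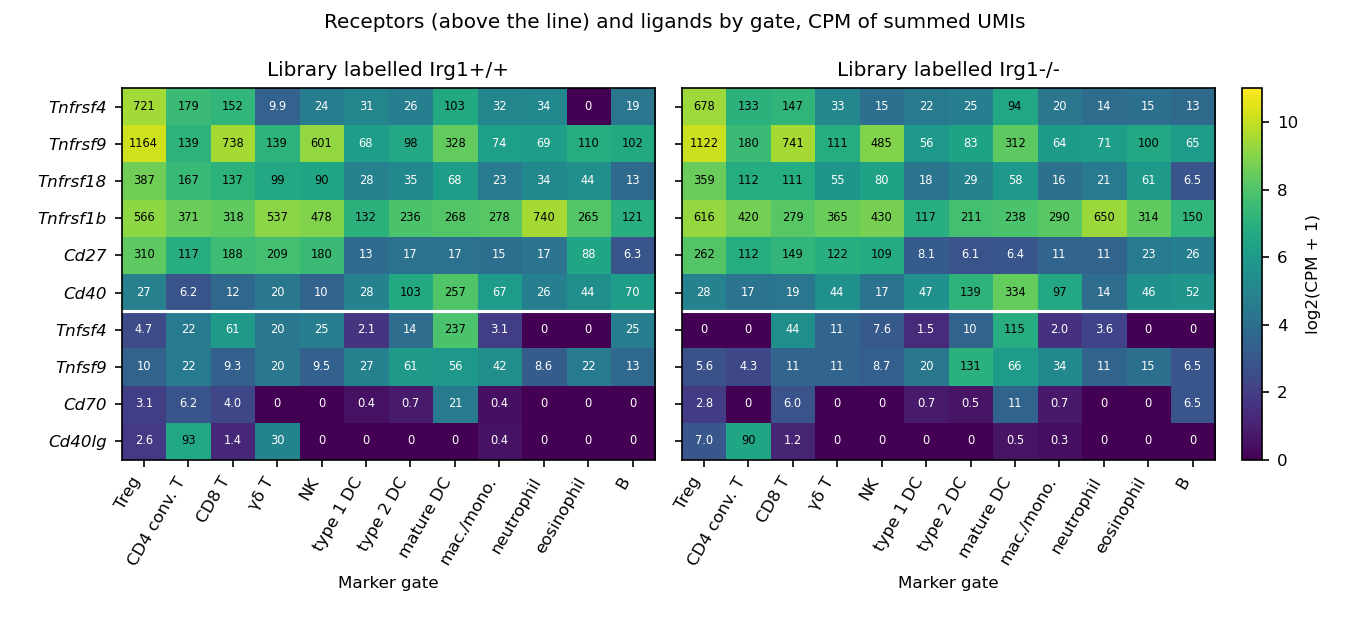
Level of each of the 10 genes in 12 marker gates, as CPM of summed UMIs printed in each square and as log2(CPM + 1) in color, with receptors above the white line and ligands below it; the left panel is the library labelled Irg1+/+ and the right panel the library labelled Irg1-/-. Tnfrsf4, Tnfrsf9, Tnfrsf18 and Cd27 peak in the regulatory T gate (Treg) and Cd40, Tnfsf4 and Cd70 in the mature dendritic gate of both libraries. Levels may be compared along a row, not between genes, since transcript length and capture differ.

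The regulatory T gate had the highest level of Tnfrsf4, Tnfrsf9, Tnfrsf18 and Cd27 among the 12 gates in both libraries. Tnfrsf4, which sustains T cells after priming, was at 721 CPM (683 to 760) and 678 CPM (619 to 741) there. It was at 179 and 133 CPM in the CD4 conventional gate, 152 and 147 CPM in the CD8 gate and 23.8 and 15.3 CPM in the NK gate. The NK values were 0.884 and 0.978 times the free-RNA level, whereas those of the regulatory T gate were 26.2 and 43.3 times it. Against T cells with no Foxp3 UMI, Tnfrsf4 was higher by 2.17 (2.05 to 2.29) and 2.18 (2.00 to 2.35) on the log2 scale, rank 79 of 10707 and 62 of 9829 genes. The T cells with Foxp3 outside the gate lay between, at 284 CPM (253 to 316) and 299.8 CPM (246 to 361), and against all T cells outside the gate, these included, the ratio was 2.01 (1.90 to 2.12) and 2.06 (1.89 to 2.23).

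Tnfrsf9, the activation receptor used to recognise recently stimulated T cells, was spread more widely. It was at 1164 CPM (1116 to 1213) and 1122 CPM (1046 to 1202) in the regulatory T gate, 738 and 741 CPM in the CD8 gate, 601 and 485 CPM in the NK gate and 328 and 312.5 CPM in the mature dendritic gate. These 4 gates kept this order in both libraries with no overlap of intervals. The CD4 conventional gate stood far below, at 139 and 180 CPM, with log2 ratios to the CD8 gate of -2.39 (-2.86 to -1.98) and -2.02 (-2.52 to -1.60). These levels were 1.63 and 2.92 times the free-RNA level. The CD4 conventional gate took only cells with under 2 of the 4 other regulatory T markers, which include Il2ra and Ctla4. The CD8 gate had no such limit, and the part of this rule in the low Tnfrsf9 was not tested. T cells without a subset held 424 and 551 CPM. Tnfrsf9 overlaps Camta1 on the other strand, which bears on its counts if strand was not used.

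Tnfrsf18, whose product lowers the dependence of T cells on other costimulation, was also highest in the regulatory T gate. It was at 387 CPM (359 to 415) and 359 CPM (316 to 405) in the regulatory T gate, 167 and 112 CPM in the CD4 conventional gate, and 137 and 111 CPM in the CD8 gate. Unlike Tnfrsf4 it was also seen in the NK gate, at 89.6 and 80.1 CPM, 4.54 and 6.43 times the free-RNA level. In the small gamma delta T gate it had 10 and 5 UMIs, 6.78 and 4.15 times that level, while Tnfrsf4 had 1 and 3 UMIs, 0.496 and 1.99 times its own. The log2 ratio of Tnfrsf18 in regulatory against other T cells was 1.39 (1.25 to 1.53) and 1.60 (1.37 to 1.82). A gene on the other strand, Gm16008, overlaps Tnfrsf18. Whether the counting used strand is not given in the sources used here, and if it did not, reads of the pair cannot be told apart.

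Tnfrsf1b, the TNF receptor that regulatory T cells depend on for expansion, was at 3.59 to 8.96 times the free-RNA level in the T and NK gates and at 3.83 and 4.19 times it in macrophages and monocytes, but at 1.54 and 2.00 times in the B gate, 2.02 and 1.77 times in the type 1 dendritic gate and 1.48 and 2.17 times in the plasmacytoid dendritic gate. Its highest levels were in the neutrophil gate (740.3 and 649.6 CPM) and the regulatory T gate (566 and 616 CPM), whose intervals overlapped in both libraries. The NK gate held 478 and 429.5 CPM, the CD4 conventional gate 371 and 420.4 CPM, the CD8 gate 318 and 279 CPM, and the macrophage and monocyte gate 278 and 289.9 CPM. Its partner ligand Tnf was highest in the same neutrophil gate, at 1214 and 1735 CPM, and next in the macrophage and monocyte gate, at 403 and 269 CPM.

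Cd27, carried by resting and activated lymphocytes, was at 6.13 to 16.6 CPM in the type 1, type 2 and mature dendritic and macrophage gates, 0.577 to 1.08 times the free-RNA level and not read as expression there. The regulatory T gate held 309.8 CPM (285 to 336) and 262 CPM (226 to 302). The CD8 gate held 188 and 149 CPM, the NK gate 180.2 and 109 CPM and the CD4 conventional gate 117 and 112 CPM. Cd27 lies at chr6:125232622-125237010 on the - strand and overlaps Vamp1 on the other strand, which the counts cannot separate if strand was not used.

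**Figure D2:**
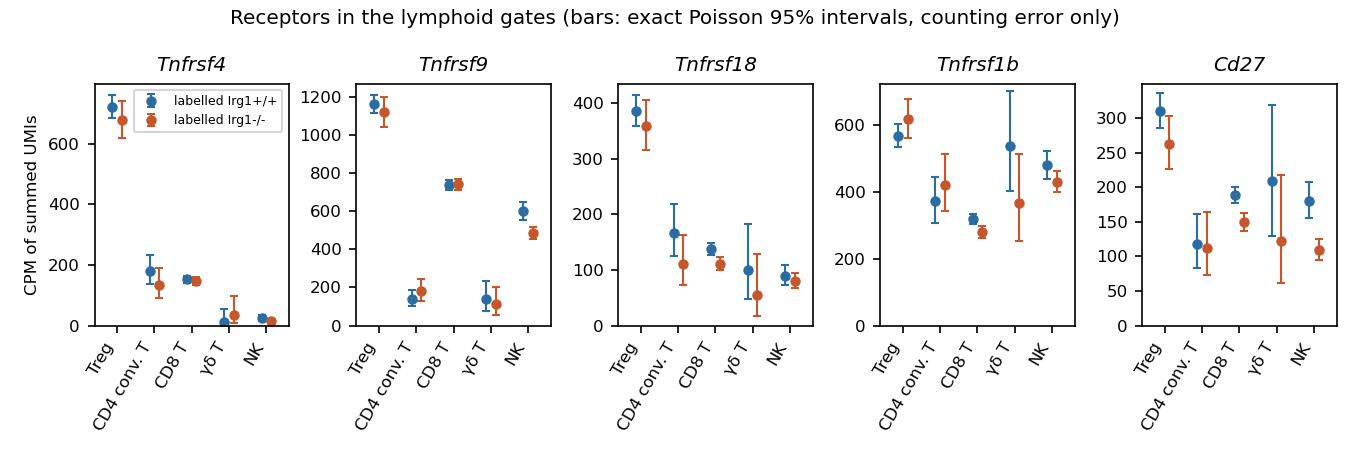
CPM of summed UMIs for 5 receptors in the regulatory T, CD4 conventional T, CD8 T, gamma delta T and NK gates, with a blue point for the library labelled Irg1+/+, an orange point for the library labelled Irg1-/- and bars for exact Poisson 95% intervals. Each panel has its own linear axis from 0. The regulatory T gate stands above the other gates for Tnfrsf4 (721 and 678 CPM), Tnfrsf9 and Tnfrsf18, while for Tnfrsf1b and Cd27 its intervals meet those of other gates in at least 1 library.

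Counted by a 2-fold ratio, regulatory T against other T cells, 5 of the 10 genes stood apart in the library labelled Irg1+/+ and 4 in the library labelled Irg1-/-, beside 9.10% and 11.9% of all genes with at least 20 UMIs. Tnfrsf4 and Tnfrsf18 were at least 2-fold higher in both libraries. Tnfrsf1b passed in the library labelled Irg1-/- alone, at 1.02 (0.86 to 1.18) against 0.70 (0.60 to 0.81), and Cd40 in the other alone, from 51 and 76 UMIs at 1.65 times the free-RNA level in the regulatory T gate (its sign turned after thinning, to -0.63). Tnfsf4, the ligand of OX40, was the gene lower on the regulatory T side in both: 9 UMIs against 328, a log2 ratio of -3.41 (-4.63 to -2.54), and 0 UMIs against 155, at least 8.95-fold lower by a floor of 3 counts. The T cells with Foxp3 outside the gate held 124 and 24 Tnfsf4 UMIs, at 111 CPM (91.9 to 132) and 65.4 CPM (41.9 to 97.3), so the low Tnfsf4 describes the gate and not every T cell with a Foxp3 UMI. Counted as other T cells, they left 5 and 3 of the 10 genes 2-fold apart, with Tnfrsf1b of the library labelled Irg1-/- just under 2-fold. Cd40lg was 2-fold lower in the library labelled Irg1+/+ alone (5 against 83 UMIs). The median log2 ratio of the 10 genes was 0.71 and 0.52, beside -0.01 and -0.03 over all genes, and with Tnfsf4 at its bound 0.53 in the library labelled Irg1-/-.

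Against NK cells, all T cells together were at least 2-fold higher in 4 of the 10 genes in each library, beside 12.0% and 11.6% of all genes, and none of the 10 was 2-fold lower, beside 7.09% and 7.33%. Of the 2-fold genes with UMIs on both sides Tnfrsf4 had the largest ratio in both libraries, 3.58 (3.05 to 4.24) and 3.91 (3.39 to 4.53) on the log2 scale. Cd40lg had 90 and 43 UMIs in T cells and 0 in NK cells, at least 3.39-fold and 5.05-fold higher. Cd70, with 37 and 23 UMIs against 0, was at least 1.40-fold and 2.70-fold higher, so its place in the first count rests on the 0.5 UMI added to each side. The remaining 2-fold genes were Tnfrsf18 in the library labelled Irg1+/+ and Tnfsf4 in the library labelled Irg1-/-. Tnfrsf1b lay on the NK side, at -0.30 (-0.43 to -0.16) and -0.29 (-0.41 to -0.17).

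CD4 conventional and CD8 cells differed in the ligands they carried. Cd40lg, the helper signal read by CD40, was at 92.8 CPM (62.6 to 132) and 90.1 CPM (55.8 to 138) in the CD4 conventional gate and at 1.41 and 1.20 CPM in the CD8 gate. This was a log2 ratio of 5.97 (4.83 to 7.47) and 6.09 (4.66 to 8.23), rank 1 of 9978 and 2 of 9224 genes, from 30 against 7 UMIs and 21 against 4. Tnfsf4 went the other way, with 61.3 and 43.5 CPM in the CD8 gate against 21.6 CPM and 0 UMIs in the CD4 conventional gate. In all, 4 of the 10 genes were 2-fold apart in each library, beside 23.7% and 30.6% of genes; for Cd70 in the library labelled Irg1-/-, 20 UMIs against 0, the CD8 level lies under the floor of the smaller gate, no fold is given, and 3 remain without it.

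Per cell, receptors were counted after every cell was thinned to 2000 UMIs, because regulatory T cells (median 5172 and 5699 UMIs) were deeper than CD4 conventional cells (2683 and 2095) and NK cells (2838 and 2676) and shallower than CD8 cells (7102 and 8993). Left out as shallower were 10 and 3 regulatory T, 35 and 40 CD4 conventional, 37 and 33 CD8 and 51 and 122 NK cells. At that depth Tnfrsf4 was detected in 74.4% (68.5 to 79.7) and 68.4% (58.2 to 77.4) of regulatory T cells, and before thinning in 95.7% and 86.1%. In CD8 cells it was detected in 17.98% and 16.0% (unthinned 46.1% and 49.2%). In macrophages and monocytes, which should lack it, the thinned share was 6.12% and 3.56% (21.1% and 12.7% unthinned, median 6056.5 and 6191 UMIs), and the NK share of 5.56% and 2.43% did not exceed it.

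Tnfrsf9 was detected in 83.3% and 81.6% of thinned regulatory T cells, 52.7% and 63.8% of CD8 cells and 52.4% and 47.7% of NK cells, beside 11.6% and 11.01% of macrophages and monocytes. The unthinned shares were 96.1% and 95.05%, 69.5% and 75.1%, 58.7% and 55.0%, and 38.5% and 32.9%. In the regulatory T gate Tnfrsf18 was detected in 54.9% and 49.0%, Tnfrsf1b in 69.1% and 62.2% and Cd27 in 48.0% and 40.8% of thinned cells. Regulatory T cells thus had the highest thinned share of Tnfrsf4, Tnfrsf9, Tnfrsf18 and Cd27 among the regulatory T, CD4 conventional, CD8 and NK gates in both libraries.

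Taking the 5 receptors of lymphoid cells together, at least 3 of 5 were detected in 73.2% (67.2 to 78.6) and 72.4% (62.5 to 81.0) of thinned regulatory T cells. The same was true of 24.0% and 24.3% of CD8 cells, 18.3% and 11.5% of NK cells, 12.3% and 11.1% of CD4 conventional cells, and 1.37% and 0.367% of macrophages and monocytes. The CD4 conventional share carries the limit that its gate set on the other regulatory T markers. The mean number per regulatory T cell was 3.30 and 3.02. In that gate 2 cells in each library carried none of the 5.

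**Figure D3:**
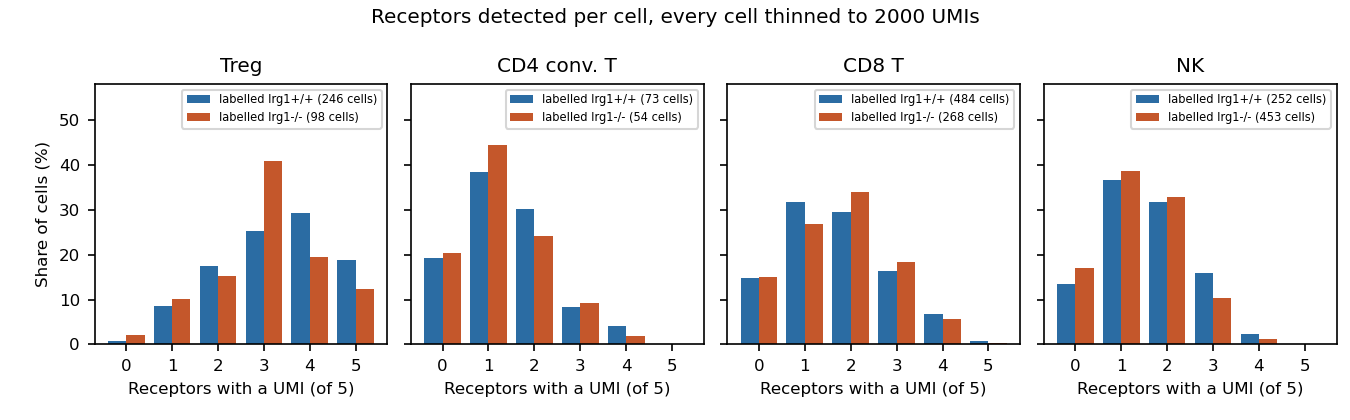
Share of cells (percent) with a UMI for 0 to 5 of the receptors Tnfrsf4, Tnfrsf9, Tnfrsf18, Tnfrsf1b and Cd27 after each cell was thinned to 2000 UMIs, by gate; blue bars are the library labelled Irg1+/+ and orange bars the library labelled Irg1-/-, with cell numbers in the legends. Most regulatory T cells carry 3 or more (73.2% and 72.4%), whereas CD4 conventional, CD8 and NK cells carry mostly 1 or 2.

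Within the regulatory T gate, pairs of receptors were compared at the thinned depth as the share of cells with the second receptor among cells with and without the first. Of 7 pairs, the share was higher among cells with the first in 7 in the library labelled Irg1+/+ and in 5 in the other, with overlapping intervals in every pair of both libraries. Tnfrsf18 was detected in 59.6% (52.1 to 66.7) of cells with Tnfrsf4, its neighbour on chromosome 4, and in 41.3% (29.0 to 54.4) of cells without it in the library labelled Irg1+/+. In the library labelled Irg1-/- these shares were 49.3% (36.8 to 61.8) and 48.4% (30.2 to 66.9). Tnfrsf1b was detected in 70.2% and 67.5% of cells with Tnfrsf9, beside 63.4% (46.9 to 77.9) and 38.9% (17.3 to 64.3) of the 41 and 18 cells without it. In the CD8 gate Tnfrsf18 was found in 28.2% (22.8 to 34.2) and 25.7% (19.4 to 33.0) of cells with Tnfrsf9, beside 10.5% (6.83 to 15.2) and 12.4% (6.56 to 20.6) of cells without it. Tnfrsf4 was found in 26.7% (21.3 to 32.5) and 17.5% (12.2 to 24.1) of CD8 cells with Tnfrsf9, beside 8.30% (5.07 to 12.7) and 13.4% (7.33 to 21.8) of those without, so for both receptors the intervals stood apart in the library labelled Irg1+/+ and overlapped in the library labelled Irg1-/-.

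Dividing cells, taken as those with at least 3 of 5 cycling markers, made up 32.8% and 29.7% of the regulatory T gate, and 41.8% and 55.2% of the CD8 gate. The markers were counted in cells that were not thinned, so the call itself favours deeper cells and these shares depend on depth. Per UMI, the 5 lymphoid receptors were lower in cycling than in other regulatory T cells in both libraries. For Tnfrsf1b the log2 ratio was -1.14 (-1.32 to -0.96) and -1.30 (-1.61 to -1.01), and for Tnfrsf4 -0.93 (-1.09 to -0.77) and -0.50 (-0.77 to -0.24). Cycling regulatory T cells were also deeper, with medians of 11967 and 10275 UMIs against 4185.5 and 3873. Per cell, without correction for this depth, they held more Tnfrsf4, with 6.92 and 6.93 UMIs against 4.66 and 3.89, although their CPM was lower.

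In the CD8 and NK gates receptors went in both directions. In the CD8 gate Tnfrsf4 was higher per UMI in cycling cells, by 0.56 (0.32 to 0.81) and 0.39 (0.03 to 0.79), while Cd27 was lower, at -0.38 (-0.57 to -0.18) and -0.72 (-1.01 to -0.42). In the NK gate the few cycling cells, 13 and 18, had more Tnfrsf9 per UMI, by 1.13 (0.85 to 1.39) and 0.79 (0.52 to 1.04). They also held 10 of the 26 and 8 of the 14 Tnfsf4 UMIs of that gate.

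On the dendritic side the mature gate, marked by Ccr7, Fscn1 and Ccl22, carried the highest level of Cd40, Tnfsf4 and Cd70 in both libraries, for Cd70 with an interval that met that of the next gate. Cd40, at chr2:165055627-165072948 on the + strand, was at 257 CPM (237 to 278) and 334 CPM (309 to 359.6) there. It was at 103 and 139 CPM in the type 2 gate, 66.6 and 97.3 CPM in the macrophage and monocyte gate and 28.2 and 46.9 CPM in the type 1 gate. These 4 gates kept one order in both libraries, with no overlap of intervals between them. In the CD8, CD4 conventional and NK gates Cd40 was at 0.345 to 0.790 times the free-RNA level.

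Tnfsf4, at chr1:161395409-161418410 on the + strand, was low in other dendritic cells and macrophages. The mature dendritic gate held 237 CPM (218 to 258) and 115 CPM (101 to 131), 36.9 and 34.6 times the free-RNA level, from 559 and 235 UMIs. Type 2 cells held 14.4 and 10.2 CPM, type 1 cells 2.13 and 1.47 CPM and macrophages and monocytes 3.07 and 1.99 CPM. Mature dendritic cells carried 46.7% and 44.4% of all Tnfsf4 UMIs of their library, and CD8 cells 25.5% and 27.4%. Its receptor Tnfrsf4 was itself at 103 and 93.6 CPM in the mature dendritic gate, 4.43 and 6.80 times the free-RNA level.

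Cd70, the ligand of CD27, had 50 and 22 UMIs in mature dendritic cells, at 21.2 CPM (15.8 to 28.0) and 10.8 CPM (6.75 to 16.3), and 2 UMIs in all other dendritic cells of each library. In macrophages and monocytes it was at 0.376 and 0.705 CPM, and in CD8 cells at 4.02 and 6.00 CPM. Cd70 (chr17:57145997-57149777, - strand) and Tnfsf9 (chr17:57105325-57107757, + strand) are neighbours with 38239 bases between them, but were not distributed alike. Tnfsf9, the ligand of 4-1BB, was highest in the type 2 gate, at 60.5 CPM (48.3 to 74.9) and 131 CPM (115 to 148), then in the mature gate at 56.5 and 65.6 CPM and in the macrophage and monocyte gate at 41.7 and 34.0 CPM. In the library labelled Irg1+/+ the type 2 and mature intervals overlapped. Macrophages and monocytes, the most numerous cells, held 44.4% and 40.7% of the Tnfsf9 UMIs. Gm11110 overlaps Tnfsf9 on the other strand.

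The remaining partners were sparse or elsewhere. Tnfsf18, the ligand of GITR, had 43 and 31 UMIs in all kept cells, so no gate of origin can be named at this depth. Cd40lg (chrX:57212143-57224042, + strand) had 107 and 65 UMIs, of which T gates held 84.1% and 66.2%. T cells without a subset held 40.2% and 18.5% of them, at 51.4 and 25.7 CPM, and the CD4 conventional T gate 28.0% and 32.3%. Of the 6 pairs, the receptor was highest in the regulatory T gate for Tnfrsf4, Tnfrsf9, Tnfrsf18 and Cd27, while for Cd40 the ligand was highest in the CD4 conventional T gate, in both libraries.

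**Figure D4:**
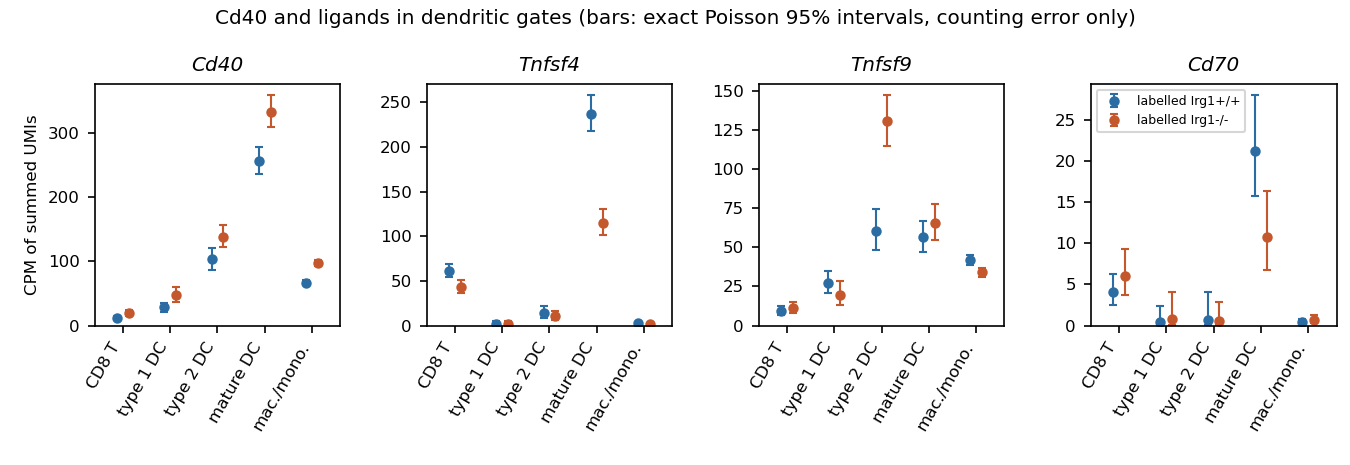
CPM of summed UMIs for Cd40 and the ligands Tnfsf4, Tnfsf9 and Cd70 in the CD8 T, type 1, type 2 and mature dendritic and macrophage and monocyte gates, with blue points for the library labelled Irg1+/+, orange points for the library labelled Irg1-/- and bars for exact Poisson 95% intervals. Each panel has its own linear axis from 0. Cd40, Tnfsf4 and Cd70 peak in the mature gate, Tnfsf9 in the type 2 gate, and Tnfsf4 in the mature gate is at 237 CPM in the first library and 115 CPM in the second.

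Of the 10 genes, 9 passed the minimum of 20 UMIs for mature against other (type 1 and type 2) dendritic cells, and 6 of them were at least 2-fold higher in each library (Cd40, Cd70, Tnfrsf18, Tnfrsf4, Tnfrsf9 and Tnfsf4), beside 10.5% and 9.86% of all genes. None was 2-fold lower, beside 17.5% and 19.1% of genes. Tnfsf4 had a log2 ratio of 5.12 (4.57 to 5.79) and 4.09 (3.49 to 4.82), rank 38 of 10014 and 77 of 9722 genes. Cd70, from 50 and 22 UMIs against 2 in each, had 5.00 (3.38 to 8.39) and 3.87 (2.14 to 7.29), and which of them is larger depends on the 0.5 UMI added to each side. Cd40 was higher by 2.19 (1.97 to 2.43) and 1.72 (1.53 to 1.92), and Tnfrsf9 by 2.04 (1.85 to 2.24) and 2.11 (1.90 to 2.33). The median log2 ratio of the 9 was 1.82 and 1.72, beside -0.18 and -0.24 over all genes. Tnfrsf1b, Tnfsf9 and Cd27 stayed within 2-fold.

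The receptors seen on mature dendritic cells were not at the free-RNA level. Tnfrsf9 was at 5.06 and 6.01 times it, Tnfrsf18 at 3.999 and 5.26 times and Tnfrsf1b at 3.86 and 3.64 times. After thinning, Tnfrsf9 was detected in 39.4% and 35% of mature dendritic cells (62.4% and 53.5% unthinned), Cd40 in 34.8% and 38.6% (52.8% and 63.1%) and Tnfsf4 in 24.3% and 15.4% (33.3% and 24.0%). Tnfsf4 was found in 26.5% and 14.8% of thinned cells with Cd40 and in 23.1% and 15.7% of those without. Tnfrsf9 was found in 37.2% (28.3 to 46.8) and 22.2% (14.8 to 31.2) of cells with Cd40 and in 40.6% (33.9 to 47.5) and 43.0% (35.5 to 50.8) of those without, so the intervals stood apart in the library labelled Irg1-/- alone.

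All dendritic cells together, set against macrophages and monocytes, were at least 2-fold higher in 4 of the 9 counted genes (Cd40, Cd70, Tnfrsf9 and Tnfsf4) in the library labelled Irg1+/+ and in 6 (Cd70, Tnfrsf18, Tnfrsf4, Tnfrsf9, Tnfsf4 and Tnfsf9) in the other, beside 10.5% and 10.4% of genes. Cd40 sat at the edge of the count, at 1.01 (0.87 to 1.14) and 0.96 (0.85 to 1.08). The count of 6 was lower with cells named by their cluster, as given in the last section. Tnfsf4 had log2 ratios of 4.95 (4.55 to 5.42) and 4.57 (4.05 to 5.18). Type 2 cells exceeded type 1 cells in Cd40 by 1.86 (1.44 to 2.31) and 1.55 (1.16 to 1.98) and in Tnfsf9 by 1.14 (0.66 to 1.64) and 2.70 (2.15 to 3.35).

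Genes around these pairs were taken from lists of the pathway. Of 24 adaptor and NF-kB genes, 14 in the library labelled Irg1+/+ and 12 in the other were at least 2-fold higher in mature than in other dendritic cells and none was 2-fold lower, with medians of 1.09 and 1.00 on the log2 scale; over all genes 10.5% and 9.86% were higher and the medians were -0.18 and -0.24. Traf1, an adaptor bound by OX40 and 4-1BB and itself induced by NF-kB, was at 786 and 934 CPM in the mature gate and 252 and 292 CPM in the type 2 gate. Relb, the subunit of the alternative NF-kB pathway, was at 396 and 428 CPM against 68.4 and 71.1 CPM, and Tnfrsf11a, the receptor of RANK ligand, at 123 and 122 CPM against 19.5 and 25.05 CPM. Of the 24, none was 2-fold apart between regulatory and other T cells, where the medians were 0.15 and 0.26, beside 9.10% and 11.9% of all genes and medians of -0.01 and -0.03.

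Among 14 other ligands of the family, 10 and 9 could be counted in regulatory against other T cells; none was 2-fold higher, beside 4.57% and 5.42% of all genes, and 5 and 3 were 2-fold lower, beside 4.53% and 6.47%. Their median log2 ratios were -1.21 and -0.78. Fasl, which kills Fas-bearing targets, and Tnfsf11 (RANK ligand) were lower in both libraries, Fasl at 14.6 and 25.2 CPM against 98.4 and 107 CPM. Of 21 other receptors, 15 and 13 could be counted and 3 and 4 were 2-fold higher, beside the same 4.57% and 5.42%, with medians of 0.46 and 0.55. Tnfrsf13b and Tnfrsf8 (CD30) were higher in both, and Tnfrsf8 was at 34.9 and 15.4 CPM against 7.06 and 6.31 CPM. In a list of 6 other costimulation genes Icos and Ctla4 were 2-fold higher, and Ctla4 is a marker used for the gate. In the CD4 conventional gate, Tnfsf11 was at 263 and 176 CPM and Tnfsf8, the ligand of CD30, at 83.5 and 60.1 CPM.

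By the correlation of log2 levels over 28 points (15 gates in the libraries with at least 30 cells), the gene most like Cd27 was Thy1 (r = 0.944), and the gene most like Tnfrsf9 was Mmd (r = 0.863), followed by AW112010 and Gzmb (granzyme B). Cd40 was most like Cd83 (r = 0.815), a surface marker of mature dendritic cells. Tnfrsf4 was most like Sdcbp2 (r = 0.810) and then Cd5, and Tnfrsf18 most like Sdf4 (r = 0.865), its near neighbour on chromosome 4. For Tnfrsf1b it was Mbd2 (r = 0.849), for Tnfsf4 Synpo2 (r = 0.804) and for Tnfsf9 Pacsin2 (r = 0.746). The points share libraries, free RNA and depth, so these values describe likeness only. Cd70 and Cd40lg, with 149 and 144 UMIs in the gates, were under the minimum of 200.

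Between the libraries, most counted ratios within a gate stayed under 2-fold. Over the 8 T, NK and dendritic gates, among genes of the 10 with at least 20 UMIs over both libraries, 5 ratios reached 2-fold: Tnfsf4 in the NK and mature dendritic gates, Tnfsf9 in the type 2 gate, and Cd27 in the type 2 and mature gates. Those of Cd27 rest on values between 0.577 and 1.03 times the free-RNA level. The count of 5 changed with the processing, as given in the last section. None reached 2-fold among the 7, 6, 9, 3 and 7 counted genes of the regulatory T, CD4 conventional, CD8, gamma delta and type 1 gates. There 5.02%, 7.02%, 3.72%, 9.21% and 3.58% of all genes did. In the NK, type 2 and mature gates, with 8, 8 and 9 counted genes, the same share was 3.99%, 3.70% and 4.02%. In macrophages and monocytes none of the 8 counted genes was 2-fold apart, beside 4.01% of all genes. With 1 library each, a genotype and a pool of tumors cannot be told apart.

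In the regulatory T gate the intervals of 4 receptors spanned 0, with log2 ratios of the library labelled Irg1-/- to the other of -0.09 (-0.24 to 0.06) for Tnfrsf4, -0.05 (-0.17 to 0.06) for Tnfrsf9, -0.11 (-0.32 to 0.10) for Tnfrsf18 and 0.12 (-0.04 to 0.28) for Tnfrsf1b. For Cd27 it was -0.24 (-0.49 to -0.00). In the CD8 gate the ratio was 0.01 (-0.07 to 0.08) for Tnfrsf9, -0.34 (-0.50 to -0.18) for Cd27 and -0.30 (-0.49 to -0.12) for Tnfrsf18. Tnfrsf1b was also lower there, at 318 CPM (302 to 334) and 279 CPM (261 to 297). The ligand Tnfsf4 was lower too, at 61.3 CPM (54.65 to 68.6) and 43.5 CPM (36.7 to 51.2). In the NK gate Cd27 stood at -0.72 (-1.02 to -0.43) and Tnfrsf9 at -0.31 (-0.46 to -0.16). Gate sizes also differed: regulatory T cells were 4.07% (3.60 to 4.59) and 1.74% (1.42 to 2.11) of all kept cells and NK cells 4.82% and 9.92%. Over all T cells, Tnfrsf4 had a ratio of -0.32 (-0.42 to -0.22), while it was -0.10 (-0.24 to 0.05) in T cells with no Foxp3 UMI and -0.14 (-0.28 to -0.01) in all T cells outside the regulatory gate.

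Tnfsf4 in mature dendritic cells had a log2 ratio of -1.04 (-1.27 to -0.82), from 237 and 115 CPM, and fell just inside 2-fold with TMM scaling (-0.99) and without the 5% of cells with the most UMIs (-0.93). The thinned share of cells with a UMI was 24.3% (19.7 to 29.4) and 15.4% (11.3 to 20.1). Cd70 in the same gate was at -0.96 (-1.77 to -0.23), while Cd40 was at 0.38 (0.22 to 0.54), Tnfrsf9 at -0.07 (-0.22 to 0.08) and Tnfsf9 at 0.22 (-0.14 to 0.57). Among the markers of that gate Ccl22 was at 4161 and 2206 CPM, Ccr7 at 2255 and 2478 CPM and Fscn1 at 5517 and 5047 CPM, and the part of these in the Tnfsf4 value was not tested. In the NK gate Tnfsf4 was at -1.68 (-2.75 to -0.71), from 26 and 14 UMIs. The lower Tnfsf4 was not limited to these gates. It was at 61.3 and 43.5 CPM in the CD8 gate, and at a ratio of -0.62 (-0.88 to -0.37) in all T cells outside the regulatory gate.

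Tnfsf9 in the type 2 gate was higher in the library labelled Irg1-/-, by 1.11 (0.75 to 1.49), from 84 and 256 UMIs. The thinned share was 10.9% (6.70 to 16.5) and 18.4% (13.8 to 23.9), and 23.8% and 36.4% before thinning. In macrophages and monocytes it was at -0.29 (-0.46 to -0.13) and in type 1 cells at -0.45 (-1.17 to 0.20). Cd209a, a marker of the gate, was at 1089 and 1167 CPM there. After thinning the ratio was 0.93 and with cells named by their cluster 0.71, and that of Cd40 in the same cells 0.03 in place of 0.42.

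Cd40 had a ratio above 0 in the regulatory T, CD8, NK, dendritic and macrophage gates that reached 20 UMIs, though in the regulatory T and NK gates the interval spanned 0. In the T cells with Foxp3 outside the regulatory gate it was at -1.35 (-4.78 to 0.42), from 2 UMIs against 19. The ratio was 0.55 (0.43 to 0.66) in macrophages and monocytes, 0.42 (0.13 to 0.73) in the type 2 gate, 0.38 (0.22 to 0.54) in the mature gate and 0.74 (0.22 to 1.25) in the type 1 gate, none of them 2-fold. The 0.67 (0.14 to 1.20) of the CD8 gate comes from levels 0.765 and 0.790 times the free-RNA level. Cd27 in the type 2 and mature gates, at -1.41 (-2.57 to -0.37) and -1.34 (-2.41 to -0.44), also rests on values between 0.577 and 1.03 times the free-RNA level. Free RNA differed in content between the libraries: the melanoma gene Dct was at 79.2 and 19.8 CPM in the CD8 gate, and its part in small ratios was not tested.

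**Figure D5:**
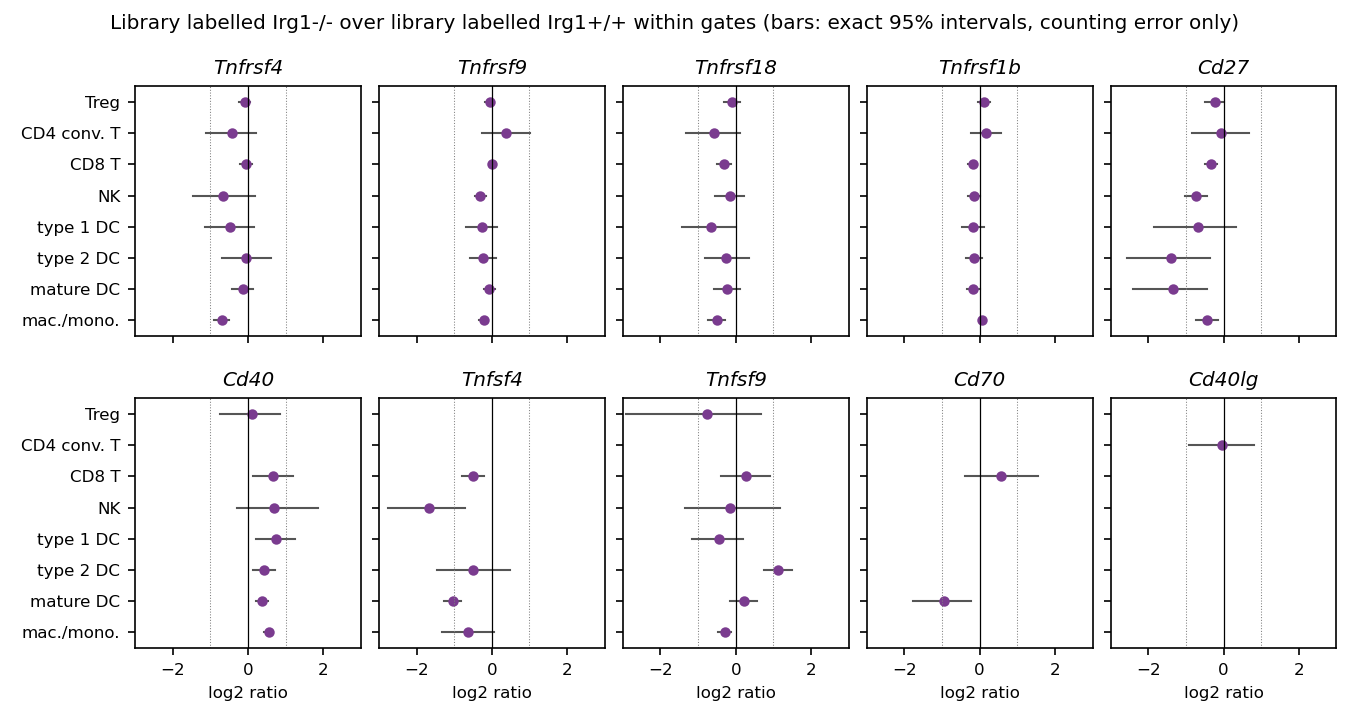
Log2 ratio of CPM in the library labelled Irg1-/- over the library labelled Irg1+/+ for each gene (panel) and gate (row), with bars for exact 95% intervals of counting error and dotted lines at 2-fold; gates with under 20 UMIs for a gene are left blank, and the gamma delta gate is not drawn. Receptors lie within 2-fold in the T gates, Tnfsf4 lies at -1.04 in the mature dendritic gate (mature DC) and Tnfsf9 at 1.11 in the type 2 gate.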

How the data were processed

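Per the labels and the study's methods, the authors trimmed reads with fastp, called cell barcodes and UMIs with UMI-tools, aligned them with STAR (Ensembl release 100, GRCm38 build), and deposited raw UMI counts for 1 library per genotype. The submitters' processing notes also name CASAVA 1.8 and Seurat. Cells with mitochondrial genes under 10% of UMIs and over 200 genes were kept, and mitochondrial genes were left out of totals.

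Marker gates used the number of distinct markers and their summed CPM. T cells needed 3 of 6 markers and 2000 CPM, NK cells 3 of 8 and 1500, type 1, type 2 and mature dendritic cells 3 of 6, 3 of 7 and 3 of 9 with 3500, 1500 and 4000, and macrophages and monocytes 7 of 14 and 12000. Regulatory T cells needed a Foxp3 UMI, more Foxp3 than Cd8a and Cd8b1 UMIs, and 2 of 4 other markers, and CD8 cells 2 Cd8a or Cd8b1 UMIs. CD4 conventional cells needed a Cd4 UMI, no Foxp3, Cd8a or Cd8b1 UMI, and under 2 of the same 4 markers (Ikzf2, Il2ra, Ikzf4 and Ctla4). The CD8 gate had no limit on these markers. Lymphoid cells could hold up to 9000 CPM of myeloid markers, which include the C1q genes of the free-RNA estimate. Gate thresholds were set after the data were seen, and the 10 genes and the gene lists were chosen with earlier results of these data known. No doublet caller was run, and the 5% of cells with the most UMIs were left out as an alternative.

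CPM were computed from the UMIs summed over the cells of a gate. Levels have Poisson intervals and shares Clopper-Pearson intervals, exact and at 95%. These cover counting error only. Ratios used 0.5 UMI on each side and genes with at least 20 UMIs over both sides, and a 2-fold size served in place of a test. A side at 0 was bounded by 3 counts. Genes named are the 10, their partners, the fixed pathway lists, gate markers and the 3 genes most like each of the 10 with at least 200 UMIs. Values came from Python 3.11.15 with numpy 2.4.6, pandas 2.3.3, scipy 1.17.1, scanpy 1.11.5 and matplotlib 3.10.9, and TMM factors from edgeR 4.0.16 in R 4.3.3. The functions were tested on simulated data. Alternatives were a mitochondrial limit of 5%, 1 marker more or fewer, thinning to 2000 UMIs, the mean of each cell's CPM, free RNA subtracted, TMM scaling, a pseudocount of 1 UMI, no filter, names taken from clusters and, chosen after seeing the data, leaving out shared barcodes and counting T cells with Foxp3 outside the regulatory gate as other T cells.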

Additional observations from a re-analysis of the deposited data

Results flagged for a closer look

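Tnfsf9 differed in direction between gates: the log2 ratio of the library labelled Irg1-/- to the library labelled Irg1+/+ was 1.11 in type 2 dendritic cells and -0.29 in macrophages and monocytes, each from 1 library per genotype, and the difference was not tested.

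The 10 genes also had UMIs in cells outside the comparisons. Cells removed for their mitochondrial share held 221 and 127 UMIs, with Tnfrsf9 at 457 and 413 CPM. Cells that passed no gate, 1802 and 1351 in number, held 6951 and 5024 UMIs, with Tnfrsf1b at 372 and 305 CPM and Tnfrsf9 at 217 and 241 CPM.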

How the results depend on the processing

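No paired analysis was possible because each genotype is 1 library. Of 1827 alternative log2 ratios, 1660 stayed within the counting interval of the reported ratio and 165 moved outside it. The other 2 changed sign. Sign changes were counted only among the 625 ratios at least 2-fold in the reported setting, of which 595 stayed so. Those of smaller ratios were not counted. Subtracting free RNA moved 53 of 153 ratios outside the interval, more than any other alternative, with a largest shift of 6.51. All 52 ratios that were 2-fold stayed so under it, but this is no check where both sides lie near or under the free-RNA level. Cd27 between libraries in the type 2 and mature gates is such a case, at 0.577 to 1.03 times that level. Subtraction leaves little or nothing there, and the ratio then rests on the fraction of a UMI added to each side. The 2 counted sign changes came with thinning to 2000 UMIs: Cd40 in regulatory against other T cells of the library labelled Irg1+/+ went to -0.63, and Cd70 in CD4 conventional against CD8 cells of the library labelled Irg1-/- to 0.73. Thinning also took the 2-fold count of CD4 conventional against CD8 cells from 4 to 2 in each library. The count of regulatory against other T cells in the library labelled Irg1-/- went from 4 to 7 with the mean of each cell's CPM, and that of dendritic cells against macrophages and monocytes from 6 to 3 with cells named by cluster. Between libraries the count of 5 became 3 without the 5% of cells with the most UMIs, 3 after thinning, 8 with the mean of each cell's CPM and 15 with no filter beyond 1 UMI. The causes of these shifts were not tested. Tnfsf4 in mature dendritic cells ranged from -1.26 to -0.93, and Tnfsf9 in type 2 cells from 0.71 to 1.32. Cluster naming was not run for CD4 conventional against CD8 cells or for the count between libraries, since no cluster was led by the CD4 conventional or gamma delta gate. Depth limits Cd70, Cd40lg and Tnfsf18, and 1 library per genotype limits every comparison of genotypes.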
